A study of Homo sapiens with 18 samples.

Results

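The response to the stronger of 2 EYA2 hairpins in the cell line D458 was described across all expressed genes. D458 is a line of Group 3 medulloblastoma, a malignant childhood tumour of the cerebellum, and the 6 libraries compared are 3 of D458 with EYA2 short hairpin RNA 8 and 3 of D458 with a non-targeting control hairpin, out of 18 libraries in the series. The other groups, used for reference, were D458 with hairpin 7, and D425, another Group 3 line, with hairpin 6, hairpin 8 or the control hairpin, each in 3 replicates. All cells, the controls included, carried a hairpin construct marked with zsGreen, spent 48 h in puromycin (1 µg/mL), were sorted for the brightest 10% and recovered for 24 h before RNA was taken. The RNA of strand-specific polyadenylated libraries therefore describes the brightest selected cells of a culture and not the unselected line. Libraries were paired by the run number in their labels (7, 9 and 10, which are replicates 1, 2 and 3), and wherever 3 values of a group are given they stand in that order of runs. Levels are CPM (counts scaled to library size), with scaling by the trimmed mean of M values (TMM), changes are log2 fold changes of hairpin 8 over control with standard errors, and a gene was called changed at an adjusted p under 0.05 in a fit with the run as a block.

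EYA2 belongs to the EYA family of proteins, which act both as phosphatases and as coactivators. They do not bind DNA themselves but are brought to it by homeodomain partner proteins such as SIX3, and DACH proteins take part in the same network as cofactors. In development this network keeps precursor cells of eye, ear, muscle and kidney dividing and in an undifferentiated state. Group 3 medulloblastoma is known for high MYC and for photoreceptor genes driven by the homeobox factors OTX2 and CRX.

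The 6 libraries held 21517711 to 26468008 counts, and 14850 of 25369 listed genes passed the filter on low counts. The hairpin 8 libraries had a count for 17818, 16780 and 16795 genes and the control libraries for 16675, 16221 and 16495. Run 7 stood apart: in a principal component analysis of the 9 D458 libraries, the component that separates the hairpins from the controls (67.3% of the variance) placed hairpin 8 at -47.3, -4.27 and -3.29 and the controls at 30.1, 44.1 and 45.2. Replicates 2 and 3 share a date in the labels, and replicate 1 has an earlier one. The labels number the replicates and do not say whether their cultures were separate, so the p-values cover the spread between these libraries.

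EYA2 itself was lower in each hairpin 8 library. It stood at 18.2, 23.5 and 19.3 CPM with hairpin 8, from 485, 540 and 454 counts, against 73.7, 67.5 and 69.8 CPM in the controls, from 1660, 1381 and 1672 counts. The groups did not overlap, and 24.7%, 34.8% and 27.7% of the control level remained in the 3 runs. The fitted change was -1.80 ± 0.15 (adjusted p = 1.64e-06). Run 7, which had the largest changes in other genes, also had the least EYA2 RNA relative to its control. With hairpin 7, EYA2 was 47.5, 51.9 and 45.1 CPM, and run 7 again stood apart. On the component that separates hairpins from controls, hairpin 7 lay at -42, -15 and -7.37. Whether the size of the response goes with the EYA2 that remained was not tested. The plot of EYA2 and CMTR1 shows the level in every D458 library.

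**Figure D1:**
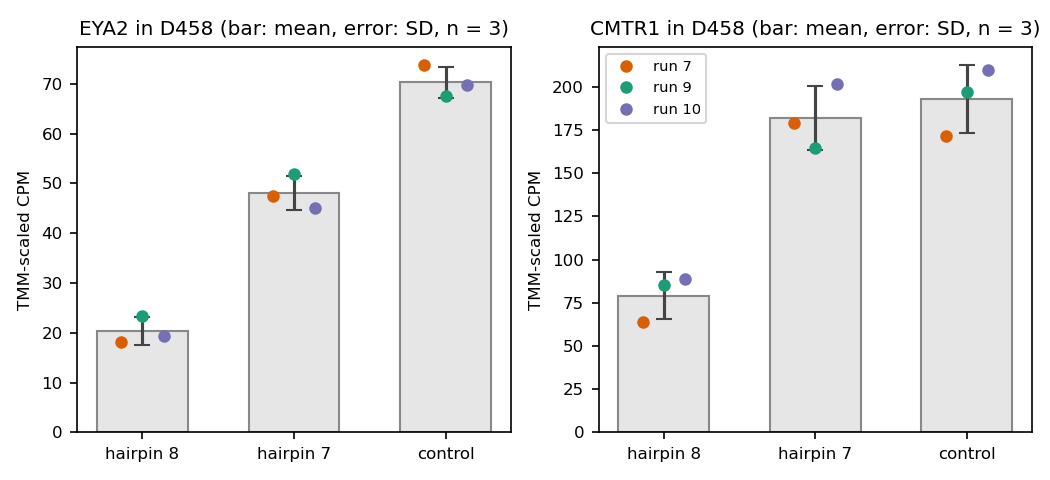
EYA2 and CMTR1 in TMM-scaled CPM in the 9 D458 libraries, by hairpin; bars are means, error bars are SD over 3 libraries and points are single libraries coloured by run. The 3 hairpin 8 libraries lie between 18.2 and 23.5 CPM for EYA2 and below both other groups for CMTR1, while CMTR1 with hairpin 7 overlaps the controls.

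Among the relatives and partners of EYA2, changes were small. Of 10 tested network genes, 3 rose and 2 fell, EYA2 itself being 1 of the 2 (1 and 1 without the block). These 30% and 20% stand beside 19.9% and 19.7% of all tested genes, so the count does not set the network apart. SIX3, a homeobox partner known from eye and forebrain development, stood at 62.6, 63.2 and 57.9 CPM with hairpin 8 against 40.1, 55.8 and 48.8 CPM in the controls, a change of 0.35 ± 0.09 (adjusted p = 0.00566). The paralog EYA1 rose by 0.38 ± 0.11 (adjusted p = 0.0107) and SIX5 by 0.24 ± 0.09 (adjusted p = 0.0423), and the paralog EYA3 fell by 0.28 ± 0.09 (adjusted p = 0.0176). EYA1, EYA3 and SIX5 did not pass without the block (adjusted p = 0.159, 0.0832 and 0.0801), and each of the 4 calls was lost when single libraries were left out. SIX3 was lost without hairpin 8 replicate 1, without control replicate 1 or without run 7 (highest adjusted p = 0.13), and EYA1 without hairpin 8 replicate 1 or without run 9 (highest 0.0664). EYA3 was lost without replicate 1 of either group or run 7 or 9 (highest 0.301), and SIX5 in 7 of 9 such fits (highest 0.257). SIX2 (-0.04 ± 0.07), SIX4 (0.09 ± 0.13), DACH1 (-0.11 ± 0.11) and DACH2 (1.06 ± 1.36, at most 0.113 CPM in any library) did not pass.

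Over all genes, 2957 were higher (19.9% of those tested) and 2931 lower (19.7%) with hairpin 8. Increases were larger than decreases: 1071 genes were at least 2-fold higher (7.21%) and 177 at least 2-fold lower (1.19%). Of the called genes, 2920 were higher and 2904 lower in all 3 runs. Without the block, 1792 (12.1%) and 1650 (11.1%) genes were called, of which all but 5 were also called with it in the same direction. Run 7 carried more of the response than the others. Among 12343 genes averaging at least 1 CPM, 1068, 550 and 522 were at least 2-fold higher and 350, 111 and 122 at least 2-fold lower in runs 7, 9 and 10, and the median absolute difference was 0.354, 0.193 and 0.204. Without run 7, 1669 genes were called higher (11.3%) and 1427 lower (9.65%), without hairpin 8 replicate 1 alone 1864 and 1428, and without control replicate 1 alone 1923 and 1625. Without run 10, 1951 were called lower.

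The 15 genes with the largest increases, by a rule that asked for a call with and without the block and the same direction in each run, included matrix, signalling and retinal genes. COL4A5, a chain of basement membrane collagen IV, stood at 49.5, 21.4 and 23.8 CPM with hairpin 8 and at 1.07, 1.76 and 1.29 CPM in the controls, a change of 4.44 ± 0.25 (adjusted p = 3.74e-08). SORCS2, a sortilin-family receptor of neurons, had 42.4, 14.2 and 15.97 CPM with hairpin 8 and 3.73, 1.61 and 1.08 CPM in the controls (3.48 ± 0.19, adjusted p = 6.15e-09). In both genes the groups were far apart and run 7 was highest within each hairpin 8 group. DCN, the small matrix proteoglycan decorin, had 11.2, 9.52 and 12.3 CPM against 1.2, 0.977 and 0.876 CPM in the controls (3.43 ± 0.49, adjusted p = 3.16e-04). USP44, a deubiquitinase of the spindle checkpoint, was even over the runs, at 5.04, 5.13 and 5.14 CPM with hairpin 8 and 0.577, 0.440 and 0.334 CPM in the controls. SAG, the arrestin of rod photoreceptors, was not, with 9.02, 0.870 and 1.32 CPM with hairpin 8 and 0.311, 0.0977 and 0.0834 CPM in the controls. GLI2, a transcription factor of the hedgehog pathway, had 8.61, 3.78 and 2.89 CPM with hairpin 8 against 0.533, 0.342 and 0.376 CPM in the controls (3.56 ± 0.21, adjusted p = 1.44e-08). The others were the non-coding RNA LINC01164 (3.91), the neuronal homeobox gene CUX2 (3.42), CRISPLD1 (5.15), the tyrosine phosphatase gene PTPN3 (5.12), ADTRP (4.96), ART3 (4.87), CREB3L1, an endoplasmic reticulum-bound transcription factor (4.52), the zinc finger gene ZNF536 (3.97) and the chondroitin sulfotransferase gene CHST11 (3.42). CRISPLD1 had 0.178, 0 and 0.0417 CPM in the controls, so that the size of such folds depends on a few counts. PREX2, an activator of Rac, had 37 counts with hairpin 8 and 0 in the controls, at least 3.73-fold higher against a floor of 3 counts per library.

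Among decreases, 2 transporter genes and several matrix and receptor genes came close to zero. SLC5A1, the sodium-glucose cotransporter of gut and kidney, had 0 counts in all 3 hairpin 8 libraries and 465 in the controls, at 5.11, 8.55 and 7.30 CPM, so it was at least 56.6-fold lower. SLC16A3, the lactate exporter MCT4, stood at 0.301, 0.348 and 0.510 CPM with hairpin 8 against 14.3, 15.4 and 15.7 CPM in the controls (-5.28 ± 0.24, adjusted p = 3.19e-09). CILP, a matrix protein known from cartilage, had 0.0376, 0.522 and 0.807 CPM with hairpin 8 and 34.1, 43.2 and 45.6 CPM in the controls (-6.56 ± 0.30, adjusted p = 2.7e-09). No hairpin 8 library came near its control in these genes. ADAMTS2, which trims procollagens, had 0.376, 0.739 and 0.637 CPM with hairpin 8 against 19.1, 9.09 and 10.6 CPM in the controls (-4.45 ± 0.40). The adhesion receptor LPHN3, also called latrophilin 3, had 0.677, 2.69 and 2.72 CPM against 16.7, 20.7 and 19.4 CPM in the controls (-3.34 ± 0.28, adjusted p = 7.06e-07). NTSR1, a receptor for neurotensin, fell to 0.564, 1.09 and 1.27 CPM with hairpin 8, against 11.4, 7.09 and 8.59 CPM in the controls. The others were BCL6B (-5.00), the testis bromodomain gene BRDT (-4.66), the collagen gene COL21A1 (-3.73), MROH2A (-3.51), the hepcidin gene HAMP (-3.24) and the inflammasome sensor gene NLRP1 (-3.10). DPP10 (-4.46) and its antisense RNA DPP10-AS1 (-4.49), and GAGE2C (-3.51), one of a family of near-identical cancer-testis genes, are uncertain, since how shared reads were counted is not given in the sources used here. The transcript LOC101929539 had 0 counts with hairpin 8 and 68 in the controls, at least 8.17-fold lower.

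**Figure D2:**
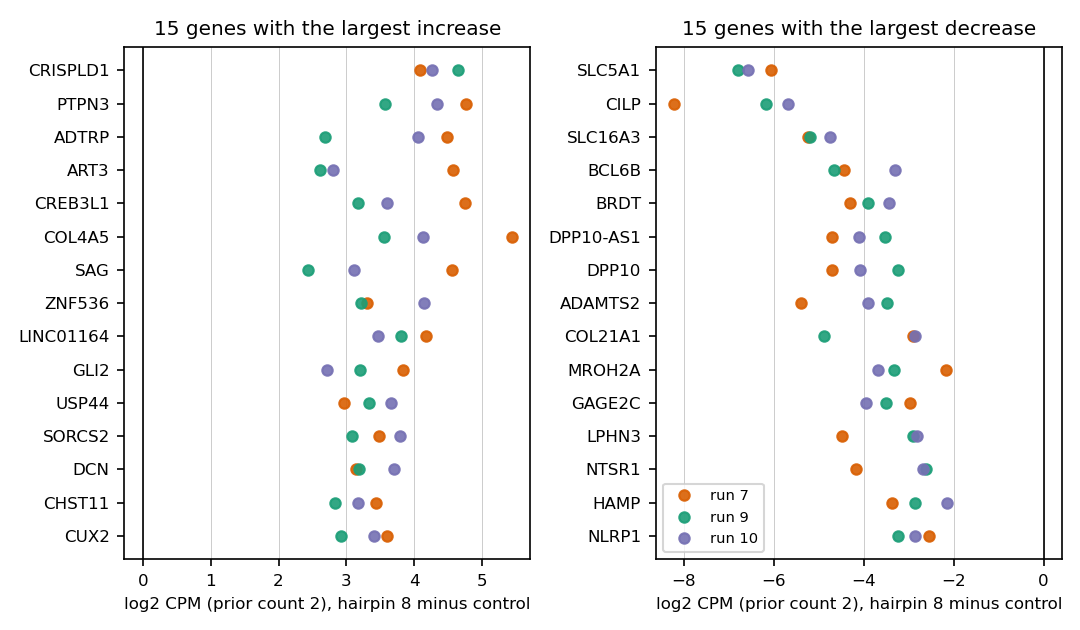
Difference of log2 CPM (prior count 2) between hairpin 8 and control within each run, for the 15 genes with the largest increases and the 15 with the largest decreases; points are runs 7, 9 and 10. Every point lies on the side of the gene's call, and run 7 is the most extreme in COL4A5, SAG and CILP.

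Changes in abundant genes were smaller. Among genes averaging at least 100 CPM, COL6A1, a collagen VI chain, stood at 184, 262 and 324 CPM with hairpin 8 against 83.5, 98.4 and 97.8 CPM in the controls (1.44 ± 0.25, adjusted p = 0.00173). NNAT, the imprinted neuronatin gene, had 1881, 1135 and 1143 CPM against 688, 502 and 473 CPM in the controls (1.30 ± 0.07, adjusted p = 7.15e-08). CYFIP2 (1.21), a subunit of the WAVE complex of actin control, KLHL41 (1.2), PLEKHB1 (1.11) and PDE6A (1.04), a subunit of the rod phosphodiesterase, also rose. The nuclear RNA MALAT1 rose by 1.32 ± 0.40 (adjusted p = 0.028), a call lost in 7 of 9 fits that left libraries out (highest adjusted p = 0.208). In the other direction, MAGEC1, a cancer-testis antigen, had 106, 184 and 198 CPM with hairpin 8 against 436, 412 and 439 CPM in the controls (-1.47 ± 0.18, adjusted p = 1.66e-04). CMTR1, described further on, and XBP1, a transcription factor of the unfolded protein response, were more than 2-fold lower as well. UTP20 (-0.87), a ribosome assembly factor, PITPNB (-0.86), a phosphatidylinositol transfer protein, VAPA (-0.78), a tether of the endoplasmic reticulum, RANBP1 (-0.75), a regulator of Ran, and EARS2 (-0.74), the mitochondrial glutamyl-tRNA synthetase, fell less. EARS2 and VAPA lie on chromosomes 16 and 18, whose genes were lower as a whole.

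Genes of the dividing cell were mostly lower, where 19.7% of all tested genes fell, 11.1% without the block and 9.65% without run 7. The 3 highest of 10 bins by expression level, where 30% to 40.6% of all genes fell, held 36 of 50 S phase genes. They also held 35 of 45 G2 and mitosis genes and 22 of 44 repair and checkpoint genes. How far the level accounts for the counts below was not tested. Of 50 tested genes of DNA replication and S phase, 0 rose and 46 fell, with a median change of -0.53, where the median over all tested genes was 0.01. CDC45, a part of the replicative helicase, stood at 34.5, 61.2 and 61.6 CPM with hairpin 8 against 84.8, 94.4 and 93.4 CPM in the controls (-0.84 ± 0.12, adjusted p = 1.36e-04). GINS1, of the same helicase, had 25.4, 45.3 and 38.6 CPM against 63.6, 62.5 and 63.0 CPM in the controls (-0.83 ± 0.13). DUT (-0.55), which clears dUTP, and RFC3 (-0.55), a subunit of the clamp loader, fell by less. Within each of these 4 genes the run 7 library with hairpin 8 was the lowest, and the list's median was -1.0, -0.26 and -0.26 in runs 7, 9 and 10. Without the block 28 members fell, and without run 7, 29. Genes of G2 and mitosis followed, with 0 of 45 higher, 34 lower and a median of -0.40. Without run 7, 21 were lower. Without the block 4 of 45 were lower, a smaller share than the 11.1% of all genes. NDC80 (-0.74) and TTK (-0.66), both of the kinetochore and its checkpoint, passed with and without the block, and UBE2C (-0.50) and PLK1 (-0.56) with it alone (adjusted p without it 0.101 and 0.218). Of 44 DNA repair and checkpoint genes, 31 fell and 2 rose, with a median of -0.37 (16 lower without the block, 15 without run 7). CHEK2, a checkpoint kinase, stood at 23.2, 32.3 and 40.3 CPM with hairpin 8 against 59.6, 79.4 and 83.7 CPM in the controls (-1.23 ± 0.08, adjusted p = 7.51e-08). BRCA1 (-0.78) and the kinase gene CHEK1 (-0.68) fell too, while LIG4, the ligase of end joining, rose to 26.5, 20.5 and 21.3 CPM, against 11.3, 9.87 and 10.1 CPM in the controls (1.12 ± 0.09).

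The promoters of 2 of these genes are printed to show the E2F words that many S phase promoters hold. E2F factors drive S phase genes, and the words TTTCCCGC, TTTGGCGC, TTTCGCGC and TTTGCCGC were searched on both strands in the RefSeq promoters (GRCh38.p14, from 250 bases before to 50 after the start). A word was found in 20 of the 38 lower S phase genes with a promoter in the table (52.6%) and in 3.34% of all 27195 promoters. For all 41 tested S phase genes it was 51.2%, and for all tested genes 5.24%, so the share describes the list and not the lower genes. CDC45 and DUT, named above, held no word. Words on opposite strands can overlap. Capitals mark the words, GINS1 lies at chr20:25407423-25407722 (plus strand) and RFC3 at chr13:33817899-33818198 (plus strand).
GINS1: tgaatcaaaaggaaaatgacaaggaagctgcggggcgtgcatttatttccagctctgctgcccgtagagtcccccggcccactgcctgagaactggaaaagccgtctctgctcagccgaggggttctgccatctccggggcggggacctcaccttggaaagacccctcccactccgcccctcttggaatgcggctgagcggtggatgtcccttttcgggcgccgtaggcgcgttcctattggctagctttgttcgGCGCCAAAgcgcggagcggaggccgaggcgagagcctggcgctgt
RFC3: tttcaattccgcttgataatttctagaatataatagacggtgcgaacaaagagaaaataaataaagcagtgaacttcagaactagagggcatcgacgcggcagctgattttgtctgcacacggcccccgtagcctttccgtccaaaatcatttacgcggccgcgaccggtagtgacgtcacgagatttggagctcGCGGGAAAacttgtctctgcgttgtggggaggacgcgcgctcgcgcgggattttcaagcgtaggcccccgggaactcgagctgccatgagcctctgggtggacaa
A match describes these letters in these windows and no binding was measured.

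Targets of p53 moved together in the other direction. Of 28 tested targets 23 rose and 0 fell, with a median of 0.62, and the list's median was 0.82, 0.45 and 0.49 in runs 7, 9 and 10. Without the block 8 rose, and without run 7, 20. Over all tested genes 19.9% rose and 19.7% fell, with 12.1% and 11.1% without the block and 11.3% and 9.65% without run 7. TP53INP1, an inducer of autophagy and cell death, stood at 60.2, 33.6 and 29.9 CPM with hairpin 8 against 14.3, 12.0 and 12.6 CPM in the controls (1.61 ± 0.13, adjusted p = 6.19e-07). GDF15, a secreted stress cytokine, had 108, 51.1 and 62.9 CPM against 25.4, 13.9 and 14.4 CPM in the controls (2.03 ± 0.21, adjusted p = 3.52e-05). GADD45A (0.76), of growth arrest, and SESN2 (0.79), a sestrin of the stress response, were higher in each run, the call of SESN2 with the block alone (adjusted p without it 0.0614). CDKN1A, the cyclin-dependent kinase inhibitor p21, had 524, 149 and 147 CPM with hairpin 8 and 97.1, 45.7 and 43.9 CPM in the controls, so that the groups did not overlap and run 7 was highest in both. Its change was 1.98 ± 0.35 (adjusted p = 0.00232), and without the block it did not pass (adjusted p = 0.0693). Among the 14 tested kinase inhibitors, D cyclins and their partners 4 rose and 4 fell (1 and 2 without the block, 2 and 2 without run 7). With the block that was 28.6% each way, and without it the share higher was below that of all genes. CDKN2C, the inhibitor p18, rose to 4.92, 5.96 and 6.16 CPM with hairpin 8, against 2.22, 2.20 and 1.33 CPM in the controls (1.57 ± 0.16), while CDKN1B, the inhibitor p27, fell by 0.38 ± 0.07 and the kinase gene CDK4 by 0.37 ± 0.09. CDKN1B was not called without the block (adjusted p = 0.0531), and CDK4 was lost without hairpin 8 replicate 1 or without run 7 (highest adjusted p = 0.1).

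Chaperones of the endoplasmic reticulum were lower as a set. Of 26 tested genes of the unfolded protein response 15 fell and 1 rose, with a median of -0.36 (14 lower without the block, 14 without run 7). Over all tested genes 19.7% fell, 11.1% without the block and 9.65% without run 7. The 3 highest of 10 bins by expression level, where 30% to 40.6% of all genes fell, held 16 of the 26. How far the level accounts for the count was not tested. XBP1, the transcription factor that induces many of these chaperones, stood at 73.2, 63.2 and 69.9 CPM with hairpin 8 against 167, 124 and 136 CPM in the controls (-1.04 ± 0.07, adjusted p = 1.05e-07). MANF, a secreted survival factor of the same response, fell by 0.64 ± 0.07, the disulfide isomerase gene PDIA4 by 0.63 ± 0.07 and the lectin chaperone gene CALR by 0.51 ± 0.06. HSPA5, the central chaperone BiP, which was added after its values were seen, had 657, 588 and 623 CPM with hairpin 8 against 1215, 803 and 843 CPM in the controls (-0.60 ± 0.08, adjusted p = 5.86e-05). In each of these genes the 3 hairpin 8 libraries lay below all controls, and the list differed less between runs than the S phase list did, with medians of -0.47, -0.29 and -0.28. The ER stress element, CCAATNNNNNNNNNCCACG on either strand, through which ATF6 and XBP1 are known to act, is printed in 3 of their promoters because it is rare elsewhere. It was found in 5 of the 13 lower genes with a promoter in the table (38.5%) and in 0.0809% of all 27195 RefSeq promoters (GRCh38.p14). Among all 23 tested list members it was found in 6 (26.1%), and among all tested genes in 0.122%. The promoters of MANF and PDIA4 held no match. Capitals mark it. XBP1 lies at chr22:28800520-28800819 (minus strand), CALR at chr19:12938359-12938658 (plus strand) and HSPA5 at chr9:125241294-125241593 (minus strand).
XBP1: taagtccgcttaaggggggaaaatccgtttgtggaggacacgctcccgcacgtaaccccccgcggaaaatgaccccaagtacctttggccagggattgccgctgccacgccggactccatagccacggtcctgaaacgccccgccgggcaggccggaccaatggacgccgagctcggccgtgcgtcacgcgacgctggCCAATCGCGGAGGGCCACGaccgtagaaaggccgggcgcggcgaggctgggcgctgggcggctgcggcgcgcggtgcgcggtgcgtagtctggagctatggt
CALR: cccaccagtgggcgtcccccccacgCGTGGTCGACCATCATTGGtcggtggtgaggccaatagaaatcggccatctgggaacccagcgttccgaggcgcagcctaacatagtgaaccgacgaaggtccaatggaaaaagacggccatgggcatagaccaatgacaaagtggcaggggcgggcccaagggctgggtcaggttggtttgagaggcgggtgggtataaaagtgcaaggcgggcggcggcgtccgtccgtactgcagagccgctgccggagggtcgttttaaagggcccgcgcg
HSPA5: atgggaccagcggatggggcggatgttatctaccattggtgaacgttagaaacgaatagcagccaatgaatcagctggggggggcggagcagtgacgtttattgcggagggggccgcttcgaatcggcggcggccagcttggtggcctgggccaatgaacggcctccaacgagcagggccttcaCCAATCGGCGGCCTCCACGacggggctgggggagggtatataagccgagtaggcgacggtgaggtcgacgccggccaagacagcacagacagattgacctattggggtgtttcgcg
These letters show where the element stands in each window, and nothing was measured of the factors there.

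Biosynthetic genes fell more often than they rose, where 19.9% of all tested genes rose and 19.7% fell. In the 3 highest of 10 bins by expression level, 30% to 40.6% of all genes fell. Those bins held 48 of 50 ribosome biogenesis, 24 of 33 cholesterol and fatty acid synthesis and 18 of 20 glycolysis genes. How far the level accounts for these counts was not tested. Of 50 tested genes of ribosome biogenesis 33 fell and 1 rose, with a median of -0.28 (24 and 0 without the block, 16 and 0 without run 7). UTP20 had 74.8, 94.1 and 83.0 CPM with hairpin 8 against 190, 132 and 140 CPM in the controls, and PES1 (-0.49), NIP7 (-0.61) and CIRH1A (-0.57), further assembly factors, were lower too. NIP7 and CIRH1A lie on chromosome 16. With the genes of chromosomes 2, 4, 5, 16 and 18 left out, 21 of 26 remaining members fell, with a median of -0.35. Among 33 genes of cholesterol and fatty acid synthesis 18 fell and 2 rose, with a median of -0.30 and medians of -0.71, -0.13 and -0.08 in runs 7, 9 and 10. Without the block 11 fell, and without run 7, 7. FASN, the fatty acid synthase, stood at 1694, 1849 and 1902 CPM with hairpin 8 against 2667, 2300 and 2315 CPM in the controls (-0.42 ± 0.07, adjusted p = 5.47e-04). The 3 hairpin 8 libraries lay below all controls. The carboxylase gene ACACA (-0.39) fell too, and SREBF2, the regulator of sterol synthesis, rose by 0.29 ± 0.06. In glycolysis 10 of 20 genes fell and 1 rose (5 and 0 without the block, 5 and 0 without run 7). The enolase gene ENO1 (-0.44), the aldolase genes ALDOA (-0.40) and ALDOC (-0.59) and LDHA (-0.38), the lactate dehydrogenase subunit, were among them, ALDOC with the block alone (adjusted p without it 0.102). Of 28 targets of the hypoxia factor HIF, 8 fell and 2 rose, with a median of -0.00 (5 and 2 without the block or without run 7). Next to SLC16A3, EGLN3, a prolyl hydroxylase that marks HIF for breakdown, fell to 7.75, 9.43 and 10.8 CPM with hairpin 8, against 20.96, 20.04 and 20.15 CPM in the controls (-1.14 ± 0.12), and BNIP3 (-0.56) and P4HA1 (-0.55) fell as well.

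A part of the basement membrane and other matrix genes rose, many of them from low levels, and a few fell strongly. NID1, which links laminin to collagen IV, stood at 112, 166 and 168 CPM with hairpin 8 against 17.5, 17.1 and 14.8 CPM in the controls (3.16 ± 0.24, adjusted p = 7.86e-06). LAMC1, a laminin chain, had 221, 191 and 179 CPM against 138, 123 and 121 CPM in the controls (0.62 ± 0.06), and LAMA2, another, had 9.02, 5.09 and 5.10 CPM against 1.64, 1.17 and 1.29 CPM in the controls (2.19 ± 0.21). ITGAV, an integrin subunit, rose by 0.98 ± 0.12. Of 29 tested integrins and laminins 13 rose and 0 fell (8 and 0 without run 7), with a median of 0.78, or 0.63 with genes that had no count in one group at their bound. Of 31 collagen genes 12 rose and 2 fell, with medians of 1.28 and 0.60 on the same terms. COL19A1 (1.92) and COL9A2 (1.51) rose next to COL4A5 and COL6A1, and COL21A1 fell. Without run 7, 8 collagens rose. Among 34 matrix proteins and proteases 14 rose and 4 fell, with LUM, the proteoglycan lumican, higher (2.81 ± 0.25) and CILP, CILP2 (-0.91) and ADAMTS2 lower, and 7 rose without run 7. Members with low counts in the controls passed the filter through the hairpin libraries. These counts therefore describe the lists and do not set them apart from other low genes, of which many rose. Over all tested genes 19.9% rose and 19.7% fell, and 11.3% and 9.65% without run 7. In bins 1 to 4 of 10 from the lowest expression level, 15.2%, 23.6%, 29.6% and 28.7% rose. The 3 highest bins held 9 of 29 integrins and laminins, 3 of 31 collagens and 5 of 34 matrix proteins and proteases.

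Photoreceptor genes, the hallmark of the tumour type, rose more often than they fell. Of 37 tested members 16 rose and 2 fell, with a median of 0.32 (12 and 2 without the block). Over all tested genes 19.9% rose and 19.7% fell, with 12.1% and 11.1% without the block and 11.3% and 9.65% without run 7. CRX, the homeobox factor that drives photoreceptor genes, stood at 58.7, 39.0 and 42.3 CPM with hairpin 8 against 24.5, 20.4 and 18.2 CPM in the controls (1.14 ± 0.10, adjusted p = 1.14e-06). PDE6B, a rod phosphodiesterase subunit, had 75.1, 34.0 and 38.5 CPM against 15.6, 7.58 and 7.30 CPM in the controls (2.27 ± 0.12, adjusted p = 4.87e-09). ABCA4 (1.67), a retinoid transporter of the outer segment, and CNGB3 (2.08), a subunit of the cone channel, rose as well. The retinal homeobox genes RAX (-2.49) and RAX2 (-1.01) fell, against the direction of the list. RAX was lost without run 7 (adjusted p = 0.0544), and RAX2 without run 9, hairpin 8 replicate 1 or control replicate 1 (highest adjusted p = 0.0921). OTX2 was 1768, 2220 and 2174 CPM with hairpin 8 and 1767, 2194 and 2204 CPM in the controls, a change of -0.00 ± 0.06 (adjusted p = 0.999) whose sign turned with the scaling (0.02 with DESeq2 size factors). MYC was high in each group, at 2903, 3521 and 3753 CPM with hairpin 8 and 3993, 4092 and 4058 CPM in the controls. It fell by 0.26 ± 0.07 (adjusted p = 0.00596), a call that was absent without the block (adjusted p = 0.0652) and lost without replicate 1 of either group or run 7 (highest adjusted p = 0.118). In its network MXD4 (0.80) and MXD1 (0.78), which compete with MYC for the partner MAX, rose and MGA (-0.61), another competitor, fell. Of 13 members 2 rose and 2 fell (15.4% each), shares below those of all genes (2 and 1 without the block). MGA was lost without control replicate 1 (adjusted p = 0.0523). Of 11 Group 3 markers 2 rose, CRX and PDE6H (1.47), and MYC fell (2 and 0 without the block, 4 and 0 without run 7). With all runs and the block, 18.2% rose, near the share of all genes. Among 9 markers of the WNT and SHH subgroups 4 rose and 2 fell (2 and 0 without the block), with NKD1 (0.82) and PDLIM3 (0.73) higher and LEF1 (-0.46) lower, the last with the block alone (adjusted p without it 0.0752).

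Signalling and neuronal lists held changes in both directions, to be read against 19.9% higher and 19.7% lower over all genes. Those shares were 12.1% and 11.1% without the block and 11.3% and 9.65% without run 7. In the hedgehog pathway 6 of 15 genes rose and 0 fell (2 and 0 without the block, 3 and 1 without run 7). SMO, its signal transducer, had 20.7, 14.8 and 15.9 CPM with hairpin 8 against 5.95, 9.82 and 9.47 CPM in the controls (1.01 ± 0.20, adjusted p = 0.00197), while the pathway's targets GLI1 (0.06) and PTCH1 (-0.27) did not pass. Among immediate early genes 12 of 28 rose and 1 fell (3 and 1 without the block, 5 and 1 without run 7), led by the growth factor response genes EGR1 (1.94 ± 0.25) and ARC (1.5 ± 0.21). EGR1 stood at 18.8, 4.13 and 5.65 CPM with hairpin 8 and at 2.71, 1.76 and 2.04 CPM in the controls, highest in run 7. Lysosome and autophagy genes rose in 19 of 35 and fell in 2 (12 and 2 without the block, 11 and 2 without run 7), with CTSB (0.65), a cathepsin, PSAP (0.49), the precursor of saposins, NPC2 (0.87), a sterol carrier, and MAP1LC3B (0.39), an autophagosome protein. Of 41 genes of neuronal cytoskeleton and synapse 17 rose and 5 fell (10 and 3 without the block, 9 and 3 without run 7), with CPLX1 (1.82), a complexin, and SV2B (0.65), a vesicle protein, higher and the neurofilament gene NEFM (-0.71) lower. Axon guidance genes rose in 14 of 46 and fell in 3, or 5 and 3 without run 7, where the share higher was near that of all genes. Among them were PLXND1 (1.45) and PLXNA2 (3.36), plexins, both higher, and NEO1 (-0.57), which was lower. In the BMP and TGF beta pathway 10 of 32 rose and 2 fell (9 and 4 without run 7). NOG, the BMP antagonist noggin, had 95.4, 56.3 and 59.4 CPM with hairpin 8 against 17.8, 16.2 and 14.1 CPM in the controls (2.11 ± 0.13, adjusted p = 7.15e-08). EPHA2 (1.03) and FLT1 (1.72), receptor tyrosine kinases, rose and the insulin-like growth factor receptor gene IGF1R (-0.34) fell. Of 29 growth factor receptors 7 rose and 3 fell (3 and 3 without run 7), a share higher near that of all genes.

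**Figure D3:**
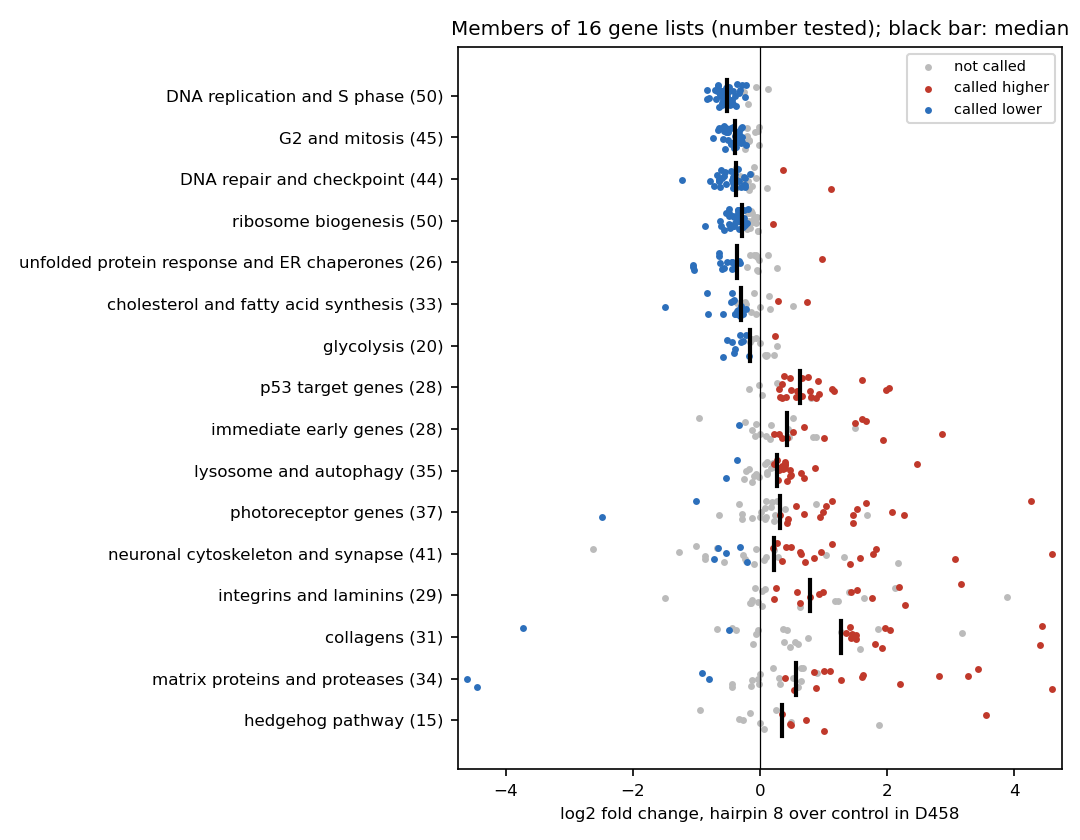
Log2 fold change of hairpin 8 over control for each tested member of 16 gene lists, with the number of members in parentheses; red points were called higher, blue lower and grey not called, black bars are medians, and 3 points beyond 4.6 are drawn at the edge. Cell cycle, ribosome assembly and chaperone lists lie left of 0, and p53, integrin and collagen lists right of it with a wider spread.

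Counts for the other lists are given with those without the block and without run 7. Over all tested genes 12.1% rose and 11.1% fell without the block, and 11.3% and 9.65% without run 7. Cytosolic ribosomal protein genes rose in 18 of 79 and fell in 4 (6 and 0, and 13 and 0), and nuclear subunits of oxidative phosphorylation rose in 16 of 75 and fell in 9 (11 and 2, and 12 and 2), against 19.9% higher and 19.7% lower over all genes. Of 24 Polycomb and DNA methylation genes 10 fell and 5 rose (3 and 4, and 4 and 3), DNMT1 (-0.57), the maintenance methyltransferase, and DNMT3A (0.46), a de novo one, moving in opposite directions. Small RNA machinery fell in 6 of 13 and rose in 0 (5 and 0, and 3 and 0), with XPO5 (-0.35), the exporter of microRNA precursors, among them. Interferon response genes rose in 8 of 19 and fell in 0 (4 and 0 in both), with a median of 0.59, or 0.31 with genes that had no count in one group at their bound. MHC class I genes rose in 5 of 9 and fell in 1 (1 and 1, and 2 and 1), and NF-kB genes rose in 5 of 19 and fell in 3 (4 and 3, and 3 and 2). ATF4 amino acid genes fell in 11 of 31 and rose in 6 (8 and 3, and 3 and 5), and apoptosis regulators rose in 9 of 23 and fell in 3 (5 and 1, and 3 and 1). Of the ATF4 genes, 20 of 31 were in the 3 highest of 10 bins by expression level, where 30% to 40.6% of all genes fell. WNT pathway genes rose in 10 of 33 and fell in 4 (7 and 2, and 6 and 3), and Notch pathway genes rose in 2 of 23 and fell in 1 (1 and 0, and 1 and 3). Retinoic acid genes rose in 5 of 15 and fell in 0 (3 and 0 in both), channels and transmitter receptors rose in 7 of 28 and fell in 1 (5 and 1, and 4 and 1), and neurogenic bHLH and SOX factors rose in 5 of 27 and fell in 3 (3 and 2, and 4 and 2).

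Markers of other cell types were checked, since matrix genes are also made by fibroblasts and endothelial cells. Of 10 tested fibroblast markers 5 rose and 0 fell (LUM, DCN, COL1A1, PDGFRB and ACTA2), where 19.9% of all tested genes rose and 19.7% fell. The tested markers summed to 133, 77.8 and 71.7 CPM with hairpin 8 and to 40.4, 38 and 37.8 CPM in the controls. Of the 14 listed, 3 (FAP, TWIST2 and POSTN) had 0 counts in all 6 libraries, and COL1A2 had 10 counts with hairpin 8 and 15 in the controls. COL1A1 was lost in 7 of 9 fits that left libraries out (highest adjusted p = 0.138), and PDGFRB without run 7 (adjusted p = 0.0931). Endothelial markers summed to 61.8, 20.3 and 20.5 CPM with hairpin 8 and 12.6, 10.2 and 8.51 CPM in the controls, mostly FLT1, and CDH5 and TEK had 0 counts. Astrocyte markers summed to 540 to 614 CPM with hairpin 8 and 523 to 591 CPM in the controls, oligodendrocyte markers to 107 to 116 and 106 to 123 CPM, and immune markers to 6.66 to 11.4 and 7.33 to 10.4 CPM, with MBP, MAG, CD3D, CD3E and MS4A1 at 0 counts throughout. LUM, DCN and COL1A1 are matrix genes as well, so the marker list moved with the matrix lists, and their part in those results was not tested. A rise in RNA per cell and a larger share of cells that express a gene cannot be told apart in these bulk libraries.

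Direction went with the expression level. With the genes in 10 equal bins from the lowest to the highest level, the share called lower was 3.57%, 3.97%, 7.27%, 8.96%, 15.2%, 22%, 29%, 30%, 36.7% and 40.6%. The share called higher was highest in bin 3, at 29.6%, and 12.9% in the top bin. Large increases were mostly in genes of low level: 225, 297 and 262 of the 1071 genes at least 2-fold higher were in bins 1, 2 and 3, and 3 in the top bin. By gene length, the longest of 10 bins (median 262 kb) had 31% higher and 12.4% lower, with 17.2% and 13.4% in the shortest.

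**Figure D4:**
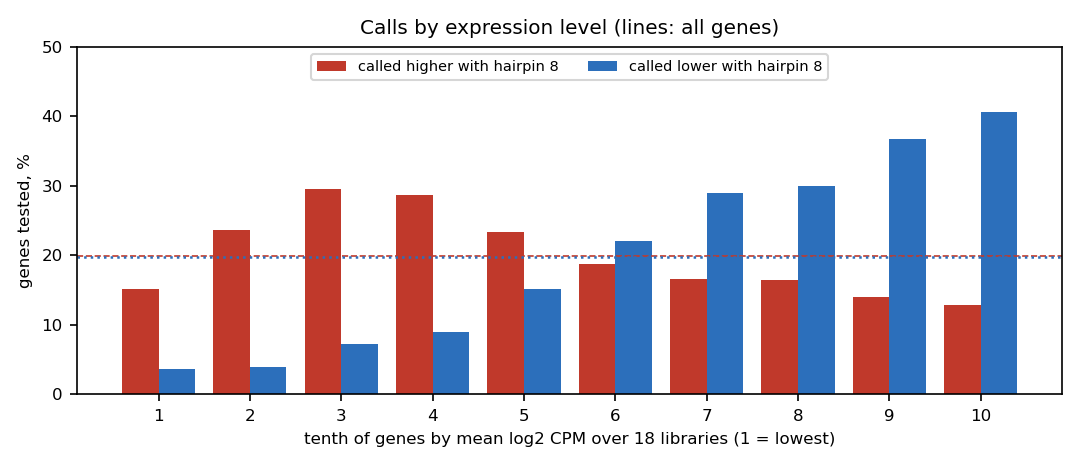
Percentage of tested genes called higher (red) and lower (blue) with hairpin 8 in each of 10 bins of genes by mean log2 CPM over the 18 libraries, with lines at the shares over all genes. The share called lower climbs to 40.6% in the top bin, while the share called higher peaks at 29.6% in bin 3.

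Direction also went with the chromosome. Of the genes tested on chromosomes 2, 4 and 5, 29.8%, 32.5% and 30% were called higher and 8.06%, 8.13% and 9.1% lower. On chromosomes 16 and 18, 10.4% and 9.05% were called higher and 37.5% and 37.7% lower. Among genes averaging at least 8 CPM, whose median change was -0.06, the chromosome medians were 0.08, 0.06 and 0.07 on 2, 4 and 5 and -0.22 and -0.26 on 16 and 18. The sign was the same in each run, with -0.29, -0.19 and -0.15 on chromosome 16 and -0.39, -0.17 and -0.23 on chromosome 18. In D458 with hairpin 7 the medians of chromosomes 16 and 18 were -0.18 and -0.25, against the same controls, and in D425 with hairpin 8 they were -0.07 and -0.01, where chromosomes 9 (-0.36) and 20 (-0.32) were lowest. Whether the cultures differ in chromosome copies was not tested. EYA2 lies on chromosome 20, whose median in D458 was -0.09.

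**Figure D5:**
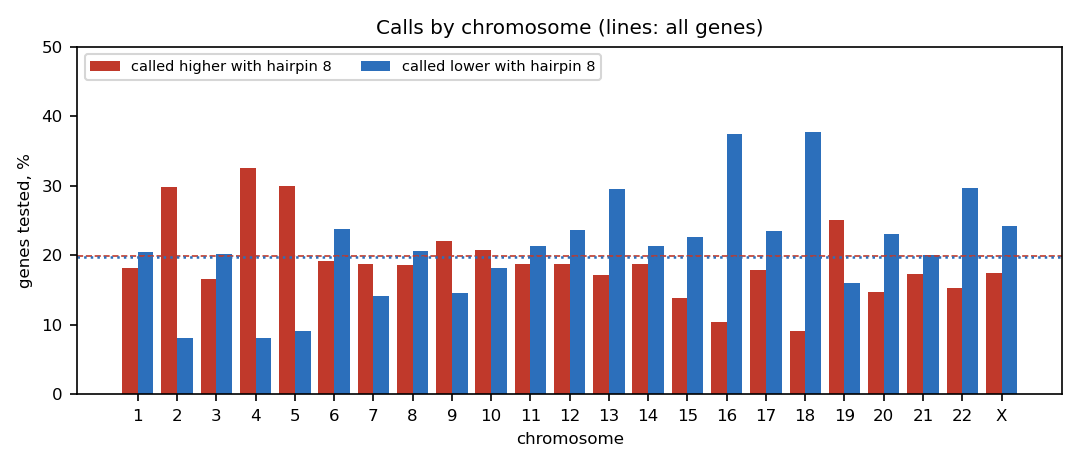
Percentage of tested genes called higher (red) and lower (blue) with hairpin 8 in D458 on each chromosome, with lines at the shares over all genes. Chromosomes 2, 4 and 5 have 29.8% to 32.5% of genes higher, and chromosomes 16 and 18 have 37.5% and 37.7% lower.

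Hairpin 8 and hairpin 7 were compared directly in D458. Of 14850 genes tested, 1 differed (0.00673%), EYA2 itself, at 18.2, 23.5 and 19.3 CPM with hairpin 8 against 47.5, 51.9 and 45.1 CPM with hairpin 7 (-1.25 ± 0.15, adjusted p = 0.011, 95% interval -1.56 to -0.93). Without the block 0 genes passed, with 274 at an unadjusted p under 0.05, and DESeq2 called 28. No gene passed either when hairpin 8 replicate 1 or 3 or any 1 hairpin 7 library was left out. CMTR1, which methylates the cap of messenger RNA, did not pass this test in edgeR and was among the genes that DESeq2 called. It stood at 63.6, 85.4 and 88.6 CPM with hairpin 8 and at 179, 165 and 202 CPM with hairpin 7, so the groups did not overlap (-1.21, adjusted p = 0.409 in edgeR and 0.00418 in DESeq2). In the controls it was 172, 197 and 210 CPM, and it fell with hairpin 8 in D425 too (-1.07), while the change with hairpin 7 was -0.08 relative to the same D458 controls. For the other genes the 2 hairpins are given side by side, since they share their controls. EYA2 changed by -1.80 with hairpin 8 and -0.55 with hairpin 7, the S phase list had medians of -0.53 and -0.49, the p53 targets 0.62 and 0.70, and the chaperones -0.36 and -0.39. CILP changed by -6.56 and -7.33, SLC16A3 by -5.28 and -5.27, COL4A5 by 4.44 and 4.30, GLI2 by 3.56 and 3.98, NID1 by 3.16 and 2.82 and CDKN1A by 1.98 and 2.30 with hairpin 8 and hairpin 7. P4HA1, at -0.55 and -0.07, and MARS, the methionyl-tRNA synthetase gene, at -0.36 and -0.13, were lower with hairpin 8 but did not pass the direct test.

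Hairpin 8 was also used in D425, and the effects in the 2 lines were compared. In D425, EYA2 stood at 17.5, 12.0 and 12.7 CPM with hairpin 8 and at 43.6, 24.6 and 15.5 CPM in the controls. These groups overlapped, and the change was -0.91 ± 0.15 (adjusted p = 3.88e-04), against -1.80 ± 0.15 in D458. Of all genes tested, 3934 (26.5%) had a D458 effect that differed from the D425 effect, 1999 of them higher and 1935 lower in D458. Without run 9 the number was 1813, without run 10 it was 2071, and without the block 1758. Among differences that passed, in genes averaging at least 1 CPM over the hairpin 8 and control libraries of both lines, the 5 largest in each direction were in CRISPLD1, NLGN1, ZNF732, ZNF141 and WFDC2 (higher) and in SLC5A1, NTSR1, CILP, BRDT and GLI3 (lower). The D458 calls of WFDC2 and ZNF732 were lost in 3 and 2 of 9 fits that left libraries out (highest adjusted p = 0.231 and 0.123). NTSR1 and SLC5A1, which fell in D458, averaged 0.123 and 0.0444 CPM in D425 with hairpin 8 and 0 in the D425 controls, and their changes in D425 did not pass (adjusted p = 0.0559 and 0.126). CILP averaged 0.0679 CPM in D425 with hairpin 8 and 0.0847 CPM in the D425 controls. PDIA4 changed by -0.63 in D458 and -0.63 in D425, a difference of 0.00 ± 0.10. The S phase list had medians of -0.53 in D458 and -0.25 in D425, with 46 and 22 members lower, p53 targets 0.62 and 0.26, ribosome biogenesis -0.28 and -0.09 and chaperones -0.36 and -0.37.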

How the data were processed

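Gene counts of 18 libraries were used as deposited by the authors: whole-number counts for 25369 genes, for which the submitters' processing notes name the build GRCh37/hg19 and, among the tools, HTSeq, TopHat2 with Bowtie2, Picard, SAMtools, FastQC and bcl2fastq (versions and strand setting: not given in the sources used here). Per the labels, libraries were strand-specific and polyadenylated. All 18 libraries (21260369 to 31552051 counts) were fitted together with edgeR 4.0.16 (quasi-likelihood, robust, TMM) in R 4.3.3, with terms for group and for run number within line, after filterByExpr with a minimum count of 10. P-values were adjusted by Benjamini-Hochberg over 14850 genes, with a threshold of 0.05, 8 residual degrees of freedom and a common biological coefficient of variation of 0.0893. The block was used because the labels give the same run number to 1 library of each group. Deviations from group means of same-numbered D458 libraries correlated at 0.236 to 0.86, and of others at -0.754 to 0.48. As deviations are centred within a group, high values for same-numbered libraries tend to lower the others, so the ranges are not independent. The highest value was between the run 7 libraries of the 2 hairpins, and hairpin 8 with same-numbered controls gave 0.339 to 0.496. Alternatives were no block, DESeq2 1.42.0, its size factors, no filter, fewer libraries and leaving libraries out. The code was tested on simulated data.

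Named genes were EYA2 and its network, the 15 largest increases and decreases called with and without the block and alike in each run (mean of at least 1 CPM), the 8 largest at 100 CPM or more, up to 4 called members of each list with the smallest adjusted p or members without which a list would mislead, the 5 largest differences between hairpins and between lines in each direction, and genes with no counts in 1 group. HSPA5, OTX2, GLI1, PTCH1, COL1A1, RAX and RAX2 were chosen after their values were seen. Some genes named by the rule are not reported here. The members and lists were chosen with earlier results of these data known. Chromosomes and promoters came from RefSeq (GRCh38.p14) by symbol, matching 97.7% of tested genes to a chromosome.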

Additional observations from a re-analysis of the deposited data

Results flagged for a closer look

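The effect of hairpin 8 differed between D458 and D425 in 3934 genes by a test of the difference itself, and the genes given here, which are described above, were among them. The values are the log2 effect in D458 minus that in D425. By over 2 on this scale, the effect in D458 was higher in ZNF732 (7.66), ZNF141 (6.26), CRISPLD1 (5.84), PTPN3 (5.28), NLGN1 (5.21), WFDC2 (5.19), ZNF536 (4.45), SAG (4.29), CHST11 (4.09), GLI2 (3.97), LINC01164 (3.93), CUX2 (3.66), DCN (3.12), NID1 (3.05), CNGB3 (2.9), PLXND1 (2.78), CREB3L1 (2.64), ADTRP (2.44) and CDKN2C (2.03). Smaller positive differences were found in ABCA4 (1.93), PDE6H (1.91), FLT1 (1.63), PDGFRB (1.5), NOG (1.47), TP53INP1 (1.36), EGR1 (1.32), CRX (1.3), ITGAV (1.27), LAMA2 (1.24), SESN2 (1.22), SMO (1.05), EPHA2 (1.05), CTSB (1.04), CPLX1 (0.981), DACH1 (0.976), PLEKHB1 (0.947), GADD45A (0.927), MXD1 (0.886), DNMT3A (0.835), SIX2 (0.805), NPC2 (0.729), LIG4 (0.698), MXD4 (0.577), SREBF2 (0.537), LAMC1 (0.503), PSAP (0.491), SIX5 (0.42), UBE2C (0.354), HSPA5 (0.315), MYC (0.291), MAP1LC3B (0.273) and OTX2 (0.243). The D458 effect was lower by over 2 in SLC5A1 (-13.7), NTSR1 (-7.99), CILP (-6.3), BRDT (-5.55), GLI3 (-5.41), COL21A1 (-5.29), DPP10 (-4.87), BCL6B (-4.36), LPHN3 (-3.72), GAGE2C (-3.66), NLRP1 (-3.28), HAMP (-3.08) and SLC16A3 (-2.41), and by less in VAPA (-1.62), UTP20 (-1.06), CHEK2 (-0.984), EYA2 (-0.891), MGA (-0.795), CILP2 (-0.698), IGF1R (-0.692), NDC80 (-0.647), BRCA1 (-0.606), PITPNB (-0.599), XBP1 (-0.594), DNMT1 (-0.537), NIP7 (-0.532), EARS2 (-0.515), BNIP3 (-0.511), TTK (-0.46), NEO1 (-0.452), CIRH1A (-0.426), LDHA (-0.371), RFC3 (-0.367), ACACA (-0.35), PES1 (-0.334), DUT (-0.329), XPO5 (-0.282) and CALR (-0.267). SLC5A1 had no counts in D458 with hairpin 8 or in the D425 controls, and NTSR1 none in the D425 controls, so their fitted differences depend on the prior count. CILP, COL21A1, DPP10, HAMP, LINC01164 and PTPN3 averaged at most 0.191 CPM in D425, both with hairpin 8 and in the controls. Their D425 effects therefore rest on few counts, in a line that hardly expressed these genes. DACH1, GLI3, OTX2 and SIX2 were not called in D458 itself. How far these differences go with the knockdown reached in each line was not tested.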

How the results depend on the processing

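Without the replicate block, 3442 genes were called (1792 higher, 1650 lower), 0 for hairpin 8 against hairpin 7 and 1758 for the difference between lines, and 12 of the 139 called genes named above were lost. Fits that left libraries out called 3096 to 5296 genes, 1669 to 2854 higher and 1427 to 2442 lower, 0 to 2 between hairpins and 1813 to 3993 between lines. The 6 libraries alone gave 1890 lower genes, and between hairpins DESeq2 called 28 genes, 4 were called without the filter and 6 in the 9 D458 libraries. EYA2 was called against control in every fit, at -1.90 to -1.69. No called gene named above turned its direction in any of these fits. Genes that were not called did: leaving libraries out gave DACH1 -0.185 to 0.0106, DACH2 -2.55 to 3.67, GLI3 -4.23 to 0.865, SIX2 -0.0803 to 0.0368, SIX4 -0.116 to 0.264 and OTX2 -0.000578 to 0.0314. OTX2 was 0.0195 with DESeq2 size factors in edgeR and in DESeq2, 0.0255 without the filter and 0.0111 in the 6 libraries alone. The cause was not tested. DESeq2 size factors moved the median change of all genes by 0.02 and the share of calls that were higher to 53.6%, from 50.2% with TMM. Lists without chromosomes 2, 4, 5, 16 and 18 were chosen after seeing the data. They gave 39 of 42 remaining S phase genes lower and 20 of 24 remaining p53 targets higher. Low-count genes limit precision, since their folds rest on a few reads in 1 group.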
